A study of Oryctolagus cuniculus with 4 samples.

Results

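Heat shock proteins and their co-chaperones were followed in 4 Visium sections of rabbit supraspinatus muscle. They were chosen by gene name alone (the small heat shock proteins, the HSP70, HSP90 and J-domain families, the BAG proteins, the chaperonin subunits, the heat shock factors and the chaperones of myosin), which gave 60 of the 21139 genes of the count table. Of these 60, 32 had at least 200 UMIs over the 4 sections and entered the comparisons, 5 had no UMI in any section (HSPA1L, DNAJB13, DNAJC5G, DNAJB8 and HSPB9), and 5 others had between 1 and 3. A further 14 well known family members, among them HSPA5, HSPA1A, HSP90AA1, HSPH1, HSPE1, HSPB6, HSPB7, DNAJB1, STIP1 and HSF1, had no feature of that name in the table and were not analysed here.

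Chaperones bind proteins that are unfolded or not yet folded and keep them from aggregating. Small heat shock proteins hold such clients without ATP, HSP70 and HSP90 machines refold or mature them in ATP-driven cycles steered by J-domain proteins and nucleotide exchange factors, and the chaperonin ring folds actin and tubulin inside a closed chamber. In striated muscle the small heat shock proteins are abundant, bind at the Z-disc and along desmin and titin, and with HSPA8 and BAG3 hand damaged filament proteins to autophagy, while UNC45B and SMYD1 serve the folding and assembly of myosin.

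The animals were female, skeletally mature New Zealand White rabbits, and the tissue was the posterior distal muscle belly, snap frozen after harvest. The 4 sections were healthy muscle used fresh, healthy muscle kept frozen for 6 years, and muscle taken 2 weeks (2w) and 16 weeks (16w) after the supraspinatus tendon was cut (tenotomy, a model of rotator cuff tear) and kept frozen for the same time. There was 1 section per condition. By the names in the labels, the stored healthy and the 16w section came from opposite sides of 1 animal, so the healthy muscle of that pair is the contralateral one, and the others came from 1 further animal each. Storage, tenotomy and animal can therefore not be told apart wherever they change together, no test was possible, and all intervals given are 95% intervals that cover counting error only.

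The sections held 854 to 2440 spots and 4079313 to 12536450 UMIs, with 93.7% to 100% of the spots rich in UMIs of MYH1, MYH4 and MYH7. The myosin heavy chain genes differed: listed as fresh healthy, stored healthy, 2w and 16w, the order kept wherever 4 values follow each other, MYH7, the slow isoform, made up 14.4%, 55.4%, 13.2% and 67.7% of the adult myosin UMIs. Mitochondrial genes took 49.3%, 49.2%, 33.8% and 34.6% of all UMIs. Summed markers of connective tissue (7 of 7 genes detected) stood at 13.3, 39.1, 126 and 76.3 UMIs per 10000, and macrophage markers (7 of 7) at 0.278, 1.42, 1.28 and 2.62. Of the spot barcodes, 2118 of 2931 occurred in 2 or more sections, since every capture area carries the same barcodes. A spot covers several cells, and fewer cells of a type and less RNA per cell cannot be told apart.

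All 60 genes together gave 173, 113, 103.7 and 146 UMIs per 10000 UMIs of the section. The fresh healthy section was highest and the 2w section lowest. A few genes carried most of this. CRYAB alone held 43.1%, 51.1%, 36.7% and 43.7% of the chaperone UMIs, and CRYAB, HSPB1, HSPA8 and HSP90AB1 together 82.4%, 81.1%, 71.6% and 78.9%. Levels are counts of transcript 3′ ends, so an order between genes also depends on how well each end is annotated. Reads that match several places are not counted, and values for families with processed pseudogenes such as HSPA8 and HSP90AB1 are uncertain to that extent.

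**Figure D1:**
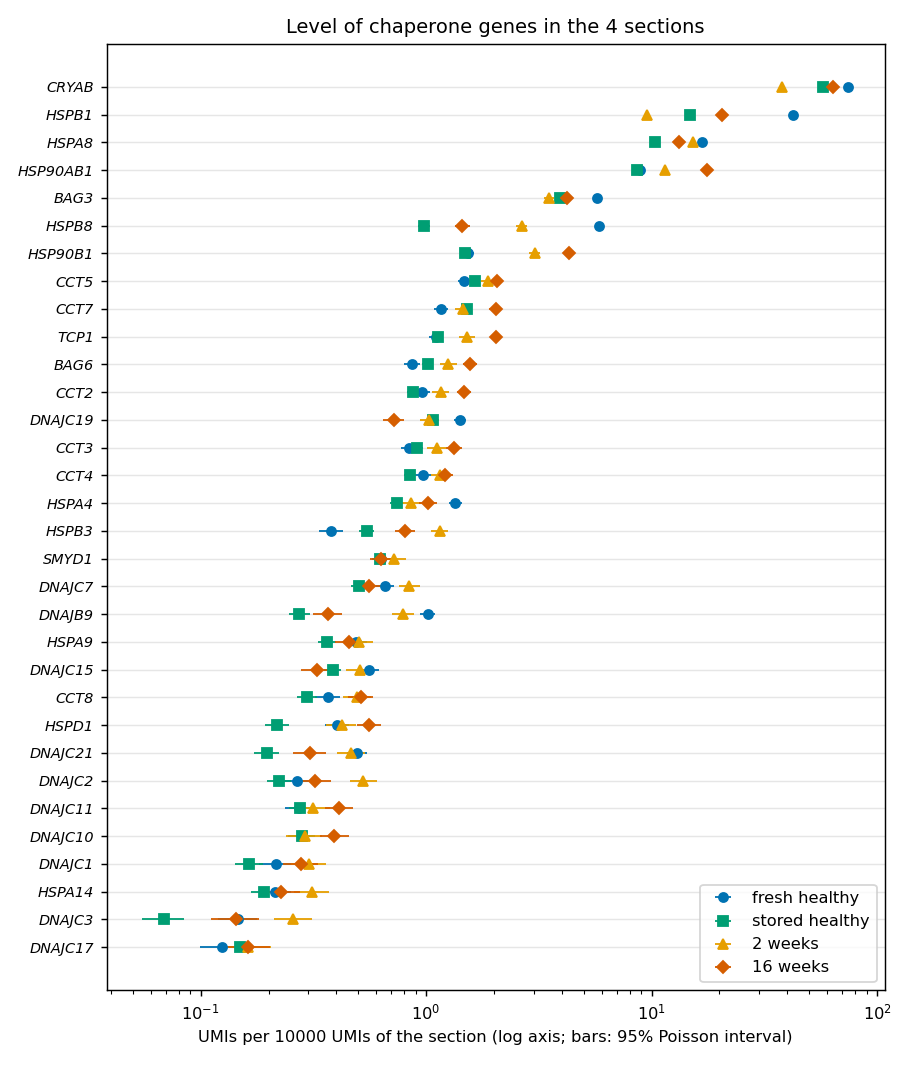
Level of the 32 chaperone genes with at least 200 UMIs, in UMIs per 10000 UMIs of the section on a log axis, with 1 symbol per section and bars for the 95% Poisson interval. CRYAB is the highest gene in all 4 sections, from 38.0 to 74.7, and the widest gaps between sections are those of HSPB8, HSPB1, DNAJC3 and DNAJB9.

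Storage was addressed by the 2 healthy sections. The heat-inducible small heat shock proteins HSPB1 and HSPB8 and 3 J-domain genes (DNAJB9, DNAJC21 and DNAJC3) were lower in the stored healthy than in the fresh healthy section, past 2-fold and with an interval without 1, and no chaperone gene was higher by this rule. These were 0 higher and 5 lower of 32, or 15.6%, where 14.4% of the 3286 genes tested were called (7.46% higher and 6.91% lower). The median log2 ratio was -0.28 for the chaperones and -0.05 for all genes. The count was also 5 when only spots of like MYH7 share were compared, with DNAJC1 in place of DNAJC3, beside 17.1% of all genes. In the bin of the highest share DNAJC1 had 6 UMIs in 23 fresh spots (0.548 per 10000), set against 741 stored spots (0.198). The other fresh bins lay between 0.183 and 0.227, so the DNAJC1 call leans on these 6 UMIs.

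At 2w against the stored healthy section, 7 chaperone genes were higher and none lower: DNAJC3, DNAJB9, HSPB8, DNAJC2, DNAJC21, HSPB3 and HSP90B1. This is 21.9% of 32, beside 22.9% of all genes (21.5% higher and 1.34% lower). The median log2 ratio was 0.42 for the chaperones and 0.56 for all genes. Relative to the median gene, 1 chaperone was higher (DNAJC3) and 2 were lower (CRYAB and HSPB1), beside 9.37% of all genes called. Without mitochondrial genes in the totals DNAJC3, DNAJB9 and HSPB8 were higher and HSPB1 was lower. HSP90B1, HSPB3, DNAJC2 and DNAJC21 were then not called. The median log2 ratio was 0.04 for the chaperones and 0.18 for all genes in that setting.

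At 16w against the same stored healthy section, HSP90B1, HSPD1, DNAJC3 and HSP90AB1 were higher and no chaperone gene was lower. These 4 are 12.5% of 32, beside 40.9% of all genes (39.2% higher and 1.77% lower). The median log2 ratio was 0.50 for the chaperones and 0.80 for all genes, and 5 of the 32 chaperones lay above the all-gene median. Relative to the median gene, none was higher and 2 were lower, DNAJC19 and DNAJC15, beside 17.6% of all genes called. Within bins of the MYH7 share HSPD1, HSP90B1 and DNAJC21 were called, beside 28.4% of all genes, and without mitochondrial genes in the totals HSP90B1 alone, beside 25% of all genes. The bins held 94, 404 and 603 of the 1726 spots at 16w. Spots with under 500 UMIs or under 20 adult myosin UMIs were left out, as were bins with under 20 spots. Values within bins thus differ from those over all spots in more than the MYH7 share. This comparison shares its healthy section with the 2w comparison, so their values are given side by side without an overlap.

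Between the torn muscles, HSPB1 was higher and DNAJB9 lower at 16w than at 2w, which is 6.25% of the 32 chaperones beside 18.4% of all genes (13.4% higher and 5.02% lower). The median log2 ratio was 0.06 for the chaperones and 0.26 for all genes. Relative to the median gene, 0 were higher and 3 lower (DNAJB9, DNAJC3 and HSPB8), beside 16.1% of all genes called. Within bins of the MYH7 share only HSPA14 was called, lower at 16w, beside 21.7% of all genes, and the slowest of these bins held 20 spots at 2w.

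**Figure D2:**
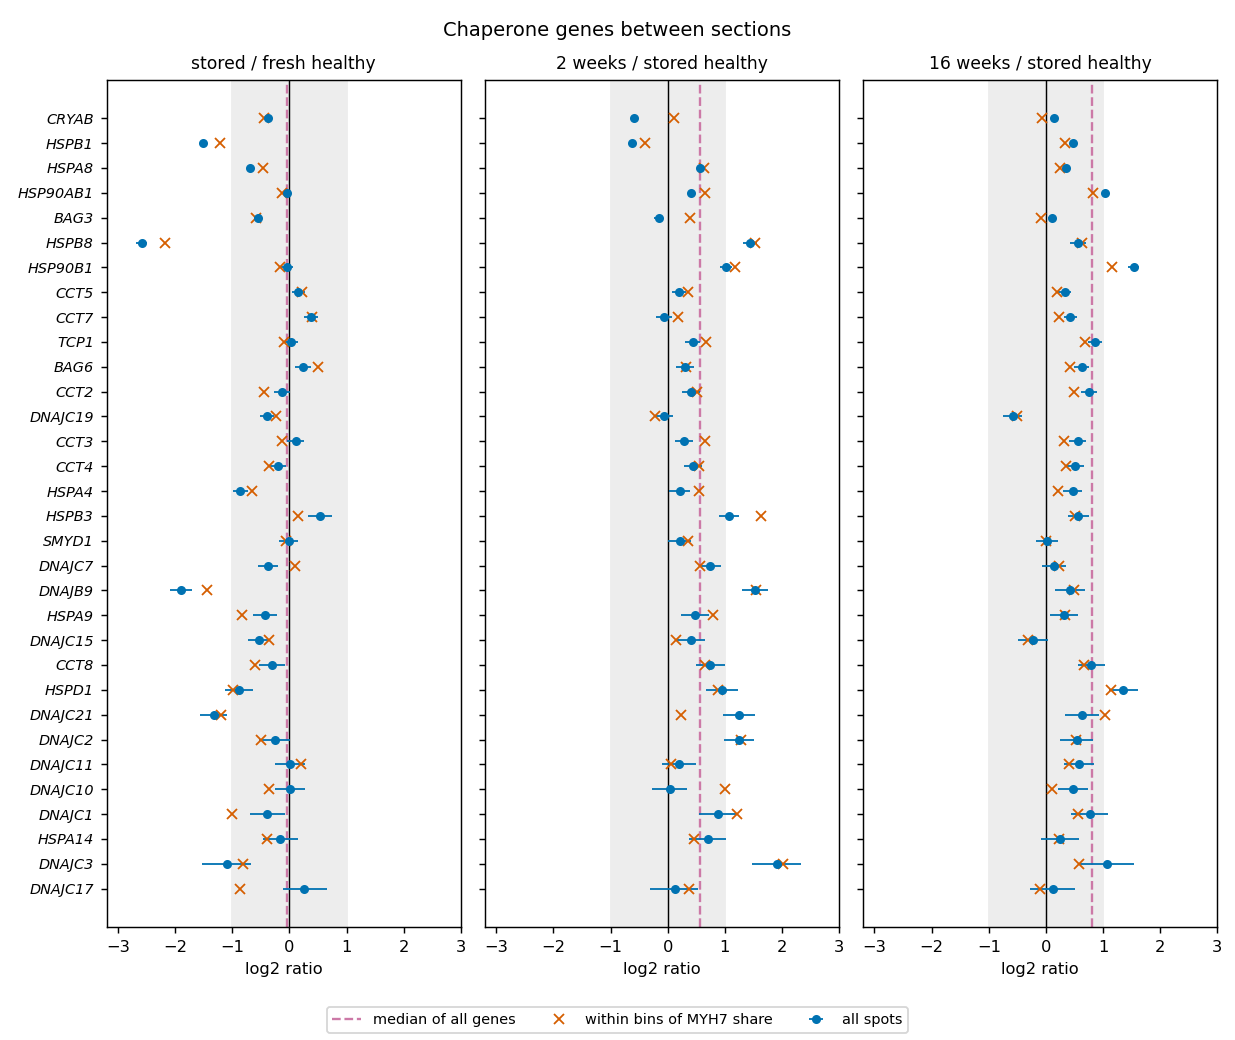
Log2 ratio of each chaperone gene between sections over all spots (points, with 95% intervals) and within bins of the MYH7 share (crosses). The grey band marks ratios under 2-fold and the dashed line the median of all genes tested, at -0.05, 0.56 and 0.80. In the right panel all but 5 points lie left of that line, and in the middle panel CRYAB and HSPB1 lie farthest to its left.

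Over the 4 sections, the highest level of a gene was 1.78 times its lowest in the median chaperone and 2.29 times in the median of all genes tested. Of the 32 chaperones, 14 were highest at 16w (61.1% of all genes), 8 at 2w (24.3%), 10 in fresh healthy muscle (10.9%) and 0 in stored healthy muscle (3.74%). The lowest level was that of stored healthy muscle for 18 of 32 (43.7% of all genes), of fresh healthy muscle for 9 (41.6%), of 2w muscle for 3 (5.26%) and of 16w muscle for 2 (9.43%).

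Of the 4 small heat shock proteins tested, CRYAB had the highest level of any chaperone in each section, and HSPB8 and HSPB1 the widest ranges over the sections. CRYAB, the alpha-B crystallin that guards desmin and the Z-disc, stood at 74.7, 57.6, 38.0 and 63.8 UMIs per 10000. The 2w section was lowest, 1.51-fold below the stored healthy (95% interval 1.49 to 1.54), and no section pair passed 2-fold. Within bins of the MYH7 share, however, the log2 ratio of 2w to stored healthy turned from -0.60 to 0.12. The 16w to 2w ratio likewise turned from 0.75 to -0.29, so neither direction held once spots of like MYH7 share were compared.

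HSPB1, a stress-induced partner of CRYAB that caps and stabilises actin filaments, stood at 42.4, 14.8, 9.53 and 20.5 UMIs per 10000. The fresh healthy section was far above the other three. Its level fell 2.87-fold in the stored healthy section (2.81 to 2.92), and within bins of the MYH7 share the log2 ratio was -1.22 in place of -1.52. HSPB1 was 2.15-fold higher at 16w than at 2w (2.07 to 2.23), a gap of 0.86 on the log2 scale within bins, which no longer reaches 2-fold. The bin of the highest MYH7 share held 20 spots at 2w (12.4 UMIs per 10000), set against 603 spots at 16w (20.2). At shares of 0.3 to 0.7 the levels were 8.96 at 2w and 21.2 at 16w. At shares of 0.1 to 0.3 they were 8.28 and 13.5. The value within bins thus leans on these 20 spots at 2w.

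HSPB8 works with BAG3 in the removal of damaged filament proteins. It had 5.87 UMIs per 10000 in fresh and 0.979 in stored healthy muscle, 2.65 at 2w and 1.45 at 16w. The order of the 3 stored sections was thus 2w, 16w and healthy, with intervals that did not overlap. The stored healthy section was 6.00-fold below the fresh one (5.63 to 6.40), the largest difference of any chaperone there, and the 2w section 2.71-fold above the stored healthy (2.50 to 2.94). In the fresh section 69.4% of the spots held an HSPB8 UMI, against 36.8%, 62.5% and 26.7% in the others, shares that also move with the UMIs per spot.

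HSPB3, a small heat shock protein of muscle for which no heat induction is known, ran in another order. Its level was 0.379, 0.546, 1.15 and 0.807 UMIs per 10000, highest at 2w and lowest in fresh muscle. At 2w it rose 2.10-fold over the stored healthy section (1.86 to 2.37), and by 1.64 on the log2 scale within bins of the MYH7 share. Over all spots its log2 ratio lay 0.51 above that of the median gene.

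Among the HSP70 machines, HSPA8, the constitutive cytosolic HSP70, had 16.8, 10.4, 15.3 and 13.3 UMIs per 10000. The stored healthy section was lowest, 1.62-fold below the fresh one (1.58 to 1.66), and the 2w section was 1.47-fold above it (1.43 to 1.52), neither past 2-fold. HSPA4, a nucleotide exchange factor of the HSP110 group, had 1.35, 0.741, 0.858 and 1.02. HSPA9, the mitochondrial HSP70, had 0.490, 0.364, 0.505 and 0.453, and HSPA14, which acts at the ribosome, lay between 0.191 and 0.311. None of the 4 HSP70 genes tested was called between any pair of sections over all spots.

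Both HSP90 genes tested were highest at 16w, as 61.1% of all genes were. HSP90AB1, the constitutive cytosolic HSP90, had 8.86 and 8.62 UMIs per 10000 in the fresh and stored healthy sections, 11.4 at 2w and 17.7 at 16w. The healthy sections lay next to each other and both torn sections above them. At 2w, however, the log2 ratio to the stored healthy section was 0.41, below the 0.56 of the median gene. HSP90AB1 rose 2.05-fold at 16w over the stored healthy section (1.99 to 2.11), or by 0.82 on the log2 scale within bins, under 2-fold. Over all spots it lay 0.23 above the median gene on that scale. It was not called without mitochondrial genes in the totals either. HSP90B1, the HSP90 of the endoplasmic reticulum (ER), which folds integrins and other membrane and secreted proteins, had 1.54, 1.49, 3.03 and 4.32. It rose 2.03-fold at 2w (1.89 to 2.18) and 2.89-fold at 16w (2.72 to 3.08), with log2 ratios of 1.18 and 1.15 within bins. In the 16w bins HSP90B1 stood at 3.12, 3.68 and 3.62, all under the 4.32 of all 16w spots. Over all spots its log2 ratios lay 0.46 and 0.73 above those of the median gene.

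The other 4 ER chaperones tested, the J-domain genes DNAJB9, DNAJC3, DNAJC10 and DNAJC1, summed to 1.66, 0.789, 1.64 and 1.18 UMIs per 10000. Both torn sections lay above the stored healthy section and neither above the fresh one, and DNAJC10 alone had a log2 ratio of 0.04 at 2w over stored healthy muscle. Of the ER folding genes listed beside the chaperones, 4 had a feature (PDIA3, PDIA4, SDF2L1 and MANF). CALR, CANX, PDIA6, P4HB, HYOU1, SERPINH1 and CRELD2 had none of that name. Among these 4 listed genes with a feature, MANF was higher at 2w and the protein disulfide isomerases PDIA3 and PDIA4 at 16w. None of the 4 was lower in either, where 21.5% and 39.2% of all genes were higher. The connective tissue markers given above were also higher in both torn sections than in the stored healthy one, and their part in these levels was not tested.

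HSPD1, the HSP60 chaperonin of mitochondria, had 0.403, 0.218, 0.422 and 0.557 UMIs per 10000. The stored healthy section was the lowest. HSPD1 rose 2.56-fold at 16w over it (2.15 to 3.04), by 1.13 on the log2 scale within bins, and over all spots lay 0.55 above the median gene. Of the subunits of the cytosolic chaperonin ring, CCT6A had no feature of that name. The 7 subunits tested (TCP1, CCT2, CCT3, CCT4, CCT5, CCT7 and CCT8) summed to 6.89, 7.21, 8.77 and 10.7. They were close in the healthy sections and highest at 16w, where 61.1% of all genes were highest, and no single subunit was called in any pair of sections. Their median log2 ratio at 16w to stored healthy was 0.55, beside 0.80 for all genes, and 1 of the 7 lay above that median. That subunit, TCP1, had 1.11, 1.13, 1.52 and 2.05, and was 1.82-fold higher at 16w than in the stored healthy section (1.67 to 1.97), 0.06 above the median gene. Of the prefoldin genes, which deliver actin and tubulin to the ring, PFDN5 was higher in the stored than in the fresh healthy section. None of the 4 listed prefoldin genes that had a feature was called in the torn sections.

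The 11 J-domain genes tested, which bring clients to HSP70 and trigger its ATPase, did not move as 1 group. DNAJB9, an ER protein induced when unfolded proteins accumulate there, had 1.02, 0.274, 0.789 and 0.367 UMIs per 10000. Fresh and 2w muscle were high, and stored healthy and 16w muscle low. DNAJB9 was 3.71-fold lower in the stored than in the fresh healthy section (3.26 to 4.24), 2.88-fold higher at 2w than in the stored healthy (2.47 to 3.37) and 2.15-fold lower at 16w than at 2w (1.78 to 2.603).

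DNAJC3, an ER co-chaperone and inhibitor of the stress kinase PERK, was sparse, with 0.147, 0.0686, 0.257 and 0.143 UMIs per 10000, highest at 2w and lowest in stored healthy muscle. It was 3.75-fold higher at 2w than in the stored healthy section (2.80 to 5.05), the largest rise of any chaperone there, and 2.09-fold higher at 16w (1.498 to 2.91), from 86 UMIs in the stored healthy section. Within bins of the MYH7 share the 16w log2 ratio was 0.58, under 2-fold, in place of 1.07. DNAJC2, which works at the ribosome exit, had 0.266, 0.223, 0.527 and 0.323, and DNAJC21, a factor of ribosome maturation, 0.494, 0.197, 0.466 and 0.306. Both rose 2.37-fold at 2w over the stored healthy section, but within bins the log2 ratio was 1.28 for DNAJC2 and 0.23 for DNAJC21.

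The J-domain genes of mitochondria did not share 1 direction: DNAJC19 and DNAJC15 were lowest at 16w, and DNAJC11, with 0.274, 0.275, 0.316 and 0.411 UMIs per 10000, was highest there. DNAJC19, of the protein import motor, had 1.42, 1.08, 1.03 and 0.719 UMIs per 10000, and at 16w lay 1.497-fold below the stored healthy section (1.33 to 1.69). DNAJC15, its close relative, had 0.557, 0.384, 0.510 and 0.329. Neither passed 2-fold on the scale of all UMIs, and these are the genes called lower at 16w relative to the median gene, by 1.39 and 1.03. CLPX, a mitochondrial unfoldase listed beside them, was called in no pair of sections.

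BAG3, the co-chaperone that links HSPB8 and HSPA8 to autophagy at the Z-disc, had 5.76, 3.93, 3.51 and 4.23 UMIs per 10000. The fresh healthy section was highest, 1.47-fold above the stored one (1.41 to 1.53), and no pair passed 2-fold. BAG6, which guards newly made membrane proteins, had 0.865, 1.02, 1.25 and 1.56. SMYD1, a methyltransferase that works with the myosin chaperones in sarcomere assembly, had the flattest line of all the named genes, at 0.631, 0.625, 0.723 and 0.632.

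The other named members were too sparse for the comparisons. UNC45B, the chaperone of the myosin head, had 28, 12, 27 and 30 UMIs in all. HSF4, a heat shock factor best known from the lens, had 12, 27, 4 and 83, and the 16w section was thus highest, with 8.02 times the share of UMIs in the stored healthy section (5.21 to 13.1). HSF2, a factor of development and stress, had 27, 46, 14 and 20, DNAJB4 between 33 and 67, and DNAJB5 between 13 and 44. Of the immediate early genes, JUN was higher at 16w than in the stored healthy section, and FOS, EGR1 and ATF3 had too few UMIs to enter. The HSP90 partner FKBP4 was higher at 16w as well, where 39.2% of all genes were higher, and NUDC was called in no pair of sections.

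Fibre type was addressed within each section. Spots with at least 500 UMIs and 20 adult myosin UMIs were ranked by the MYH7 share of MYH1, MYH4 and MYH7 and cut into 3 equal groups, and the group with the highest share (slow) was compared with the one with the lowest (fast, here mostly type IIx muscle with MYH1). Spots of a section are not replicates. A gene was called past 1.5-fold with an interval without 1.

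CRYAB and BAG3 were higher in slow than in fast spots in all 4 sections, as 12.9% of 1931 genes were, though not past 1.5-fold in each. Here and below, being on the same side in all 4 sections goes by the sign alone, with no fold or interval required. In fresh healthy muscle CRYAB had 78.9 UMIs per 10000 in slow and 74.0 in fast spots. The pairs were 87.9 and 34.3 in stored healthy muscle, 50.6 and 28.2 at 2w, and 81.2 and 51.2 at 16w. The slow groups were thus at a like level in 3 sections, and the fast groups lay far apart. These groups were unlike between sections. The mean MYH7 share was 34.5%, 94.2%, 30.4% and 89.7% in the slow and 2.95%, 17.8%, 3.66% and 36.4% in the fast groups. The folds were 1.07 (1.04 to 1.09), 2.56 (2.51 to 2.61), 1.79 (1.73 to 1.87) and 1.59 (1.54 to 1.63), and CRYAB was called in the last 3. BAG3 ran at log2 ratios of 0.08, 1.12, 0.43 and 0.58, with a call in the stored healthy section.

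The stored healthy section had the most calls. There 9 chaperone genes were higher in slow spots (CRYAB, BAG3, HSPA4, DNAJC10, HSPB3, HSP90AB1, CCT4, CCT7 and CCT3) and DNAJC21 was lower, 31.2% of 32 beside 28.4% of all genes (23.4% higher and 5% lower). HSPA4 had 0.997 UMIs per 10000 in slow and 0.510 in fast spots, and HSP90AB1 11.7 and 6.79. The slow spots there also held more connective tissue markers (61.8 against 26.8 per 10000) and markers of regenerating fibres (13.5 against 2.04). Of the latter, the neonatal myosin heavy chain MYH8 stood at 0.868 and 0.612. Macrophage markers stood at 1.65 and 1.91, and the part of all these markers in the differences was not tested. Of the 4 ER folding genes listed, PDIA3, PDIA4 and SDF2L1 were also higher in these slow spots, where 23.4% of all genes were higher. MANF was not called. None of the 4 was called between slow and fast spots of any other section.

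The other sections had few calls. In the fresh healthy section none of 32 chaperones was called, beside 6.84% of all genes (3.75% higher and 3.09% lower), in spots whose mean MYH7 share was 34.5% in the slow and 2.95% in the fast group. At 2w CRYAB was higher and DNAJC1 lower in slow spots, 6.25% of 32 beside 10.6% of all genes (3.81% higher and 6.75% lower). At 16w CRYAB and DNAJB9 were higher, 6.67% of the 30 chaperones with enough UMIs, beside 8.43% of all genes (3.78% higher and 4.66% lower). Markers of regenerating fibres stood at 3.74 per 10000 in slow and 10.6 in fast spots at 2w and at 29.4 and 12.4 at 16w. MYH8 alone stood at 1.80 and 4.06 at 2w and at 0.497 and 0.178 at 16w, so other genes made up most of the 16w sums. Connective tissue markers stood at 101 and 159 and at 51.8 and 53.1, and the part of these markers was not tested. The fast group at 16w still had a mean MYH7 share of 36.4%, so the groups do not span the same shares in each section.

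Of the 30 chaperones tested in every section, CRYAB, BAG3, CCT2 and CCT7 were on the slow side in all 4, where 12.9% of 1931 genes were, and DNAJC7, which bridges HSP70 and HSP90, was on the fast side in all 4, where 10.8% were. For CCT7 the log2 ratios were 0.12, 0.67, 0.17 and 0.19, and for DNAJC7 -0.33, -0.36, -0.30 and -0.08. None of the DNAJC7 values passed 1.5-fold.

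Levels in fixed bins of the MYH7 share set the sections on 1 axis. In the stored healthy section CRYAB climbed from 30.5 UMIs per 10000 in spots with a share under 10% to 34.0, 46.6 and 88.7 in spots of 10% to 30%, 30% to 70% and above 70%. At 2w it climbed from 30.1 to 38.5, 59.3 and 100.4, the last from 20 spots. In the fresh healthy section it was already at 73.6 in the lowest bin and reached 81.6 in the highest, which held 23 spots. These sections thus differed most in fast muscle and least in slow muscle. The 16w section had no bin under 10%, and CRYAB went from 41.1 at 10% to 30% to 76.6 above 70%.

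Along the MYH7 share, HSPB1 and HSPB8 ran against CRYAB in the fresh healthy section, where CRYAB rose only from 73.6 to 81.6. Over single thinned spots of that section their rank correlations with CRYAB were positive, at 0.38 for HSPB1 and 0.24 for HSPB8. The opposite course thus concerns the MYH7 share only. HSPB1 fell there from 47.4 UMIs per 10000 in the lowest to 31.0 in the highest bin of the MYH7 share, and HSPB8 from 6.79 to 3.56. In the stored healthy section HSPB1 went from 11.9 to 17.6 instead, and HSPB8 stayed between 0.896 and 1.02. HSPB1 in fresh muscle exceeded the stored healthy section in every bin.

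**Figure D3:**
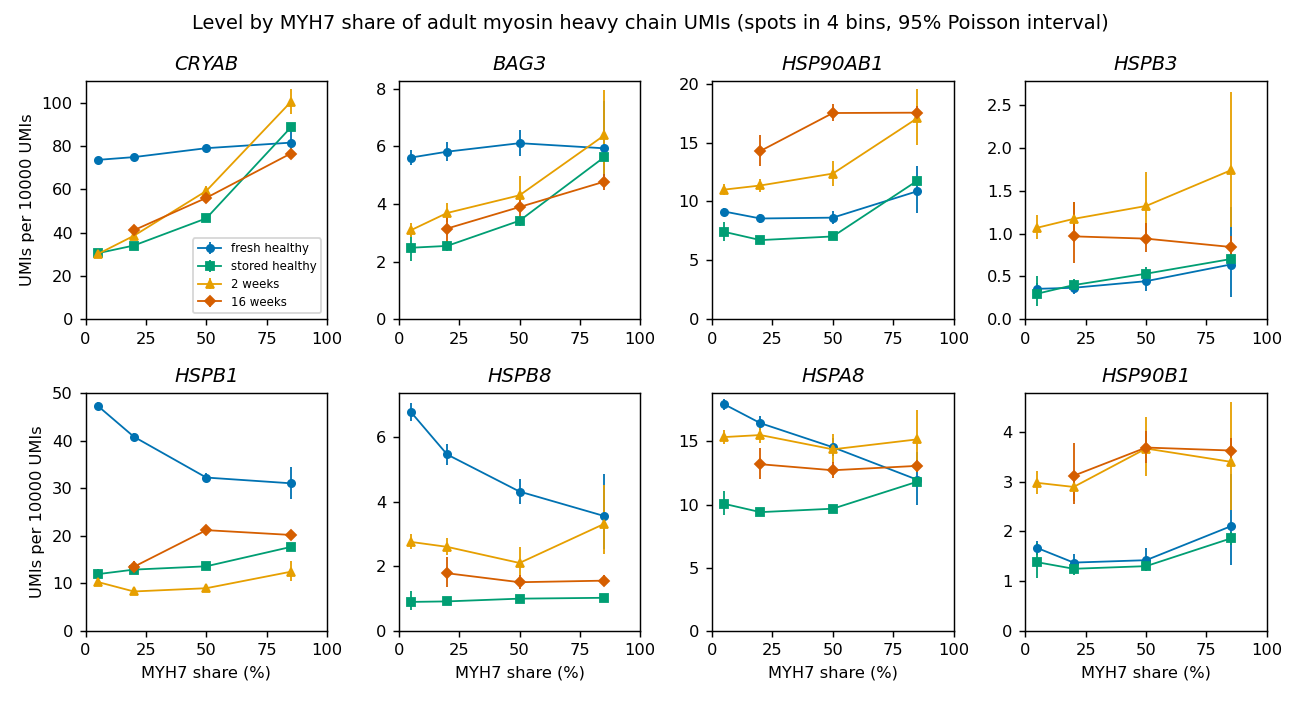
Level of 8 chaperone genes, in UMIs per 10000 UMIs with 95% Poisson intervals, in spots binned by the MYH7 share of adult myosin heavy chain UMIs (bins at 10%, 30% and 70%, drawn at their midpoints), with 1 line per section. The lines of CRYAB meet between 76.6 and 100.4 at the slow end, with 20 spots at 2w and 23 in fresh muscle there. Under 10% those of the fresh healthy, stored healthy and 2w sections lie between 30.1 and 73.6. The 16w section has no bin under 10%, and its CRYAB line starts at 41.1 in the next bin. The lines of HSPB1 and HSPB8 keep sections apart along most of the axis. Those of HSP90B1 set the torn sections above the healthy ones, with overlapping intervals within each of these pairs.

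MYH8, the neonatal myosin heavy chain, marks regenerating fibres. Spots with at least 2 MYH8 UMIs were compared with spots without any: 122 with 1946 in the stored healthy section, 90 with 670 at 2w and 25 with 1502 at 16w. The fresh healthy section had 6 such spots and was left out. The groups differed in depth, with median UMIs per spot of 5835 and 5160 in the stored healthy section, 6562 and 4419 at 2w, and 3941 and 2220 at 16w.

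At 2w HSPB1 was the 1 chaperone gene higher in MYH8 spots, with 16.96 UMIs per 10000 against 7.73, a 2.20-fold difference (2.05 to 2.35). HSPB1 in MYH8 spots at 2w thus came near its level in the stored healthy section. The fold rose to a log2 ratio of 1.37 in the 40 spots with 5 or more MYH8 UMIs, from 1.13. DNAJB9 and BAG6 were lower there, 1.51-fold (1.09 to 2.19) and 1.60-fold (1.23 to 2.15). These 3 are 9.38% of 32, beside 9.32% of all genes (3.16% higher and 6.16% lower). CRYAB, at 35.5 and 39.1, was not called. Macrophage markers stood at 1.49 and 1.26 per 10000 and connective tissue markers at 144 and 122 in these groups. None of the 4 ER folding genes listed was called at 2w, with a median log2 ratio of 0.13 beside -0.08 for all genes.

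In the stored healthy section DNAJC3 and HSP90B1 were higher in MYH8 spots, 6.25% of 32 beside 10.2% of all genes (8.95% higher and 1.24% lower). HSP90B1 had 2.26 UMIs per 10000 against 1.45, or 1.57-fold (1.32 to 1.84), and DNAJC3 rested on 11 UMIs in the MYH8 spots. HSPB1, with 17.1 and 14.6, was not called here. In the 27 spots with 5 or more MYH8 UMIs, 12 chaperones were higher, 37.5% of 32 beside 14.9% of all genes called, and macrophage markers stood at 24.3 and connective tissue markers at 81.1 per 10000 there. In the 122 spots macrophage markers stood at 7.795 per 10000 against 1.04 in the spots without MYH8, connective tissue markers at 54.9 and 38.6, and their part was not tested. Of the 4 ER folding genes listed, PDIA3, PDIA4 and SDF2L1 were higher in the 122 spots too and MANF was not called, where 8.95% of all genes were higher.

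At 16w 11 chaperone genes were higher in MYH8 spots and none lower: HSPA4, DNAJC2, HSPB8, CCT3, CCT7, CRYAB, CCT5, BAG6, HSP90AB1, HSPB1 and HSP90B1. This is 34.4% of 32, beside 15.1% of all genes (13.5% higher and 1.62% lower). HSPA4 had 2.81 UMIs per 10000 against 0.990, or 2.88-fold (1.91 to 4.09), CRYAB 103.9 against 62.9, or 1.65-fold (1.56 to 1.75), and HSPB1 31.3 against 20.2, or 1.56-fold (1.39 to 1.73). HSPB8 had 3.26 against 1.40, or 2.37-fold (1.62 to 3.28). BAG3, at 4.35 and 4.23, was not called. Of the CRYAB UMIs of these 25 spots, 21.6% lay in a single spot.

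These 25 spots differed in more than MYH8. Mitochondrial genes took 23.4% of their UMIs against 35.0% in the spots without MYH8, macrophage markers stood at 10.9 and 2.32 per 10000 and connective tissue markers at 173 and 72.02, and their part in the 11 calls was not tested. Without mitochondrial genes in the totals, 4 chaperones were called (HSPA4, HSPB8, CCT3 and CCT7), beside 12.4% of all genes. With spots of 1 MYH8 UMI added there were also 4 (HSPB8, DNAJC2, SMYD1 and DNAJC17), beside 10.5% of all genes. Of the 4 ER folding genes listed, PDIA3, PDIA4 and SDF2L1 were higher in the MYH8 spots and MANF was not called. The stored healthy section had the same calls and the 2w section none of them. Of all genes, 13.5% were higher at 16w. The 4 ER J-domain genes had a median log2 ratio of -0.22 in the 16w MYH8 spots, with 1 above 0 and 3 below.

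**Figure D4:**
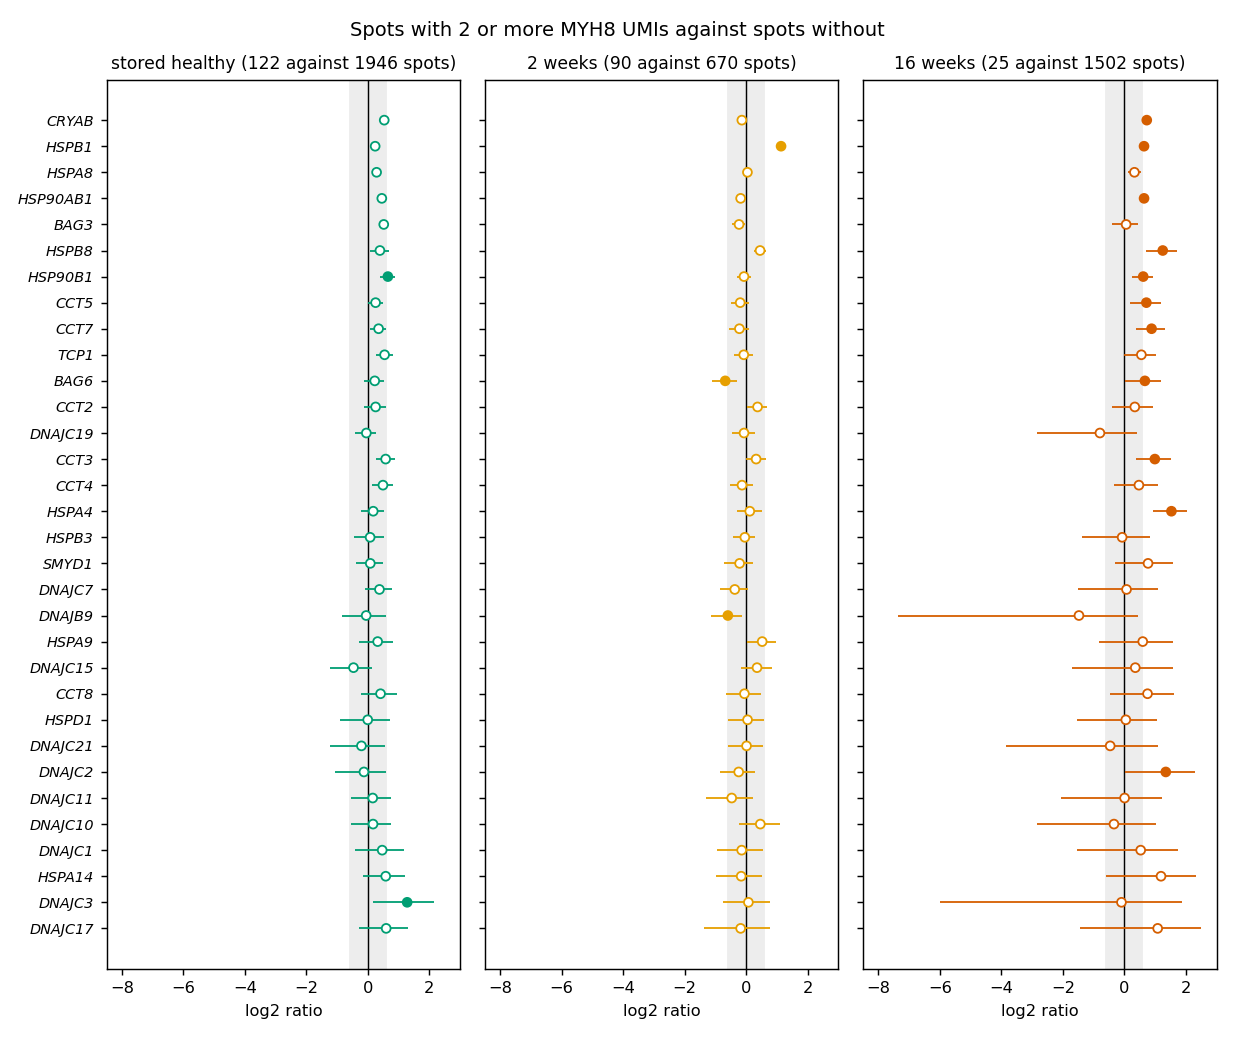
Log2 ratio of each chaperone gene in spots with 2 or more MYH8 UMIs against spots without, in 3 sections, with 95% intervals for counting error. Filled symbols are past 1.5-fold (grey band) with an interval without 0: 2 in the stored healthy section, 3 at 2w, where HSPB1 stands alone on the right at 1.13, and 11 at 16w.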

How the data were processed

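Spatial transcriptomes of 4 sections of rabbit supraspinatus were obtained on 3′ Visium slides, whose barcoded spots capture polyadenylated RNA and whose molecules are counted by UMI. The authors made the deposited counts of UMIs per gene and spot under tissue with Space Ranger 1.2.0 on OryCun 2.0 with Ensembl release 104, without normalization, and all spots and genes were used here. Total UMIs ranged from 4079313 to 12536450 per section, which sets the counting error.

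Groups came from the sample titles. With 1 section per condition, sums of UMIs were compared as ratios relative to the section or spot-group total, with 0.5 UMI added for the log2 scale and exact conditional 95% intervals. Levels carry exact Poisson intervals. A gene was called past 2-fold between sections or 1.5-fold between spot groups with an interval without 1, among genes with at least 200 UMIs over the 4 sections and, between spot groups, 50 in the pair. No test was run and no doublets were called, since a spot covers several cells. The 37 mitochondrial genes were recognised by neighbouring identifiers. Spot groups used spots with at least 500 UMIs. Muscle-rich spots had at least 50 UMIs of MYH1, MYH4 and MYH7 together per 10000.

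The members, the marker lists and the lists of other folding genes were chosen with earlier results of these data known. Named were the core family members with a feature and, in each comparison, the 5 members at each end of the ordered ratios. HSF4, UNC45B and sums over roles are values without a call. Marker genes with a feature numbered 4 of 9 for muscle, 7 of 7 for connective tissue, 3 of 6 for adipose tissue (2.97 to 13.4 UMIs per 10000 by section), 7 of 7 for macrophages, 4 of 4 for vessels (3.00 to 7.01), 1 of 3 for blood (0.0319 to 0.169) and 5 of 6 for regenerating fibres (0.601 to 21.7). No sequences are printed, since no sequence of the build used was at hand.

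Alternatives were other totals, minimum counts, spot filters, folds and MYH8 limits, and thinning each spot to 1000 UMIs. Ratios within bins of the MYH7 share (edges 0.1, 0.3 and 0.7) were added after seeing the data. They used spots with at least 500 UMIs and 20 adult myosin UMIs, in bins with at least 20 spots in both sections compared. Scripts ran under Python 3.11.15 (with pandas 2.3.3, scipy 1.17.1, numpy 2.4.6 and matplotlib 3.10.9) and were tested on simulated data.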

Additional observations from a re-analysis of the deposited data

Results flagged for a closer look

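BAG6 was flagged because its ratio between MYH8 spots and spots without MYH8 went in opposite directions in the torn sections. The log2 ratio was -0.68 at 2w, from 62 UMIs in the MYH8 spots and 408 in the others, and 0.67 at 16w, from 26 and 661 UMIs. Both passed 1.5-fold with an interval without 1, the second narrowly (1.01 to 2.30). The difference between the sections was not tested.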

How the results depend on the processing

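Counts of called chaperones depended on the rules. Stored against fresh healthy muscle, 5 calls became 8 with genes of at least 50 UMIs, 9 with at least 1 and 8 at 1.5-fold. At 2w against stored healthy muscle, 7 became 4 without mitochondrial genes, 3 relative to the median gene, 12 and 15 with the lower minimums and 14 at 1.5-fold. Of the 4 without mitochondrial genes, 3 were among the 7, and HSPB1, called lower, was not. At 16w against stored healthy muscle, 4 became 1, 2, 10, 13 and 10 under the same settings. Between 16w and 2w, 2 became 1 within bins of the MYH7 share, 5 with at least 1 UMI and 10 at 1.5-fold. Slow against fast spots gave 4 (fresh), 5 (2w) and 6 (16w) calls in place of 0, 2 and 2 with fixed shares of 0.7 and 0.3, 1 in the fresh and 1 in the 2w section after thinning, and 2 (stored), 1 (2w) and 0 (16w) in place of 10, 2 and 2 at 2-fold. For MYH8 spots, the 2 calls of the stored healthy section became 0 and 12 with at least 1 and 5 MYH8 UMIs, 1 without mitochondrial genes and 1 at 2-fold. The 3 calls at 2w became 1 and 5 with these limits and 1 at 2-fold, and the 11 at 16w became 4 with at least 1 MYH8 UMI, 4 without mitochondrial genes and 3 at 2-fold. Lower minimums test more genes and lower folds call more, and other causes were not tested. Where no share of all genes is given above for a setting, its count cannot set chaperones against other genes. The remaining 33 alternative counts stayed within 1.5 times. For single genes, 991 values moved by less than counting error and 270 by more, and none that was called changed sign. Not run, for lack of spots, were the fresh MYH8 comparison and, at 16w, the limit of 5 MYH8 UMIs, muscle-rich spots alone and matched MYH7 groups. No paired analysis was possible because each condition had 1 section. Genes under 1 UMI per 10000 rest on few counts per spot, and differences between animals, sides and storage are not covered by any interval.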

Other observations

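Over single spots, each thinned to 1000 UMIs, CRYAB had a median of 6 UMIs in fresh and 4 in stored healthy muscle, 3 at 2w and 5 at 16w, and HSPB1 of 4, 1, 1 and 2. The variance of the counts over their mean, which is 1 for chance sampling alone, was 3.30, 3.30, 2.31 and 2.34 for CRYAB and 2.57, 1.25, 1.32 and 1.43 for HSPB1. For HSP90AB1 it lay between 1.06 and 1.24. This ratio grows with the mean for the same relative spread, so it does not rank genes of unlike level.

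The rank correlation of CRYAB with the MYH7 share over spots was 0.08 in fresh (1644 spots) and 0.53 in stored healthy muscle (2279), 0.30 at 2w (800) and 0.38 at 16w (1075). That of CRYAB with HSPB1 was 0.38, 0.13, 0.07 and 0.07 over all thinned spots. These are descriptions over spots of 1 library each, which share its preparation and are not independent.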
